A study of Mus musculus with 92 samples.

Results

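The genes described here are 10 components of insulin signalling and of the traffic of the glucose transporter GLUT4: the insulin receptor Insr, the adaptors Irs1 and Irs2, the kinases Pdpk1, Akt2 and Gsk3b, the transcription factor Foxo1, the Rab GTPase-activating proteins Tbc1d1 and Tbc1d4, and the transporter Slc2a4, which encodes GLUT4. They were chosen by name, and all 10 were found among the 13441 genes of the deposited table. RNA was sequenced from the quadriceps muscle of 92 DOz mice, outbred mice that differ from each other in their inherited alleles. All animals had eaten chow for life, were aged about 18 to 20 weeks and formed 1 group, so the data hold no contrast of treatments. The questions asked of the data were how far each gene varied from animal to animal, which of the genes varied together, and how they followed clock, fasting and fibre-type genes. The hour of dissection, the feeding state and the insulin level of the animals were not given in the sources used here.

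Insulin binds its receptor on the muscle fibre, and the receptor phosphorylates IRS adaptors, which recruit PI3-kinase. The lipid that this kinase makes brings PDK1 (the product of Pdpk1) and AKT2 to the membrane. AKT2 then phosphorylates GSK3, which releases glycogen synthase, excludes FOXO1 from the nucleus, and inhibits TBC1D4 and TBC1D1, so that Rab proteins can carry GLUT4 vesicles to the surface. In fasting muscle, where insulin is low, FOXO1 is known to raise genes of fat use and protein breakdown such as Pdk4 and Fbxo32. Most of these steps act on proteins, whereas the values below are transcript levels.

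Values are log2 expression on a per-million scale (read from the values, since no source states it), and each animal is a single library. The myofibre genes Acta1 (14.6 ± 0.169, mean ± SD, n = 92) and Ckm (13.8 ± 0.174) were high in every animal, with lowest values of 14.1 and 13.1. Markers of other cells were also present. The summed level of 7 adipocyte markers had a median of 254 and a highest value of 1280 on the linear per-million scale. That of 6 endothelial markers ranged from 130 to 318, that of 6 fibroblast markers from 435 to 2240 and that of 5 blood markers from 176 to 25200. In bulk muscle, fewer cells of a type and less RNA per cell cannot be told apart. The numbers in the sample titles fell into 5 runs of 33, 14, 21, 11 and 13 animals. The labels do not say what the runs are, and they were treated as possible batches.

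On the mm10 (GRCm38) assembly, Irs1 lies on chr1:82233101-82291416, Irs2 on chr8:10984681-11008458 and Foxo1 on chr3:52268336-52353221 (GENCODE M21 genes). The other members lie on chr8:3122061-3279617 (Insr), chr17:24073680-24150924 (Pdpk1), chr7:27591552-27640826 (Akt2), chr16:38089001-38246084 (Gsk3b), chr5:64156305-64351486 (Tbc1d1), chr14:101442360-101609191 (Tbc1d4) and chr11:69942539-69948188 (Slc2a4). Irs1, Irs2 and Foxo1 were among the 5 members with wide spread between animals, and the 250 bases before their RefSeq start sites are shown because Irs1 and Irs2 alone, among the 8 members with a promoter, held one of the motifs searched. Foxo1 stands beside them for comparison, as another variable member and one associated with Irs2. The windows are chr1:82291440-82291689 (minus strand), chr8:11008930-11009179 (minus strand) and chr3:52268087-52268336 (plus strand), from RefSeq on GRCm38.p6, written 5′ to 3′ on the strand of the gene. Capitals mark the E-box CACGTG, the element to which CLOCK and BMAL1 and other basic helix-loop-helix factors bind.
Irs1: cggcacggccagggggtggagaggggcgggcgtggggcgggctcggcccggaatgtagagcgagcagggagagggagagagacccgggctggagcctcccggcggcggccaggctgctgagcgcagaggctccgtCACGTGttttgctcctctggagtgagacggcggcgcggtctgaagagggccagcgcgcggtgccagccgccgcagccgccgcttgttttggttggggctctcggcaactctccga
Irs2: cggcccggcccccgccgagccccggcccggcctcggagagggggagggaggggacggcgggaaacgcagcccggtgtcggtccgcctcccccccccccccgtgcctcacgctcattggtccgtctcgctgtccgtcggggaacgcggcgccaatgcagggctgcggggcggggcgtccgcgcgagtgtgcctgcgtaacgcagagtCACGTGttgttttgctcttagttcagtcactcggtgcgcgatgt
Foxo1: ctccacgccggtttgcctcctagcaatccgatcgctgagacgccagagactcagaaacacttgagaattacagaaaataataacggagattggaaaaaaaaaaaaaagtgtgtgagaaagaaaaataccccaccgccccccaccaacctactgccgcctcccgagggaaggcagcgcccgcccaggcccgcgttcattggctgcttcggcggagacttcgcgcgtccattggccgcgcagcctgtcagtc
The E-box began at position -115 from the start of Irs1 and at -44 from the start of Irs2. Of 32851 mouse promoters, 6.02% held it in the same 250-base window. The Irs1 and Irs2 windows were rich in G and C (72.4% and 72.8%), and the Foxo1 window was less so (56%). Promoters were found for 8 of the members (13 promoters). In none of them did the upstream window hold a D-box (TTATGNAA, 3.07% of all promoters), a ROR element (TAGGTCA, 2.23%), a FoxO element (GTAAACA, 3.17%), an SREBP element (TCACNCCAC, 1.05%), a MEF2 element (3.2%) or a full glucocorticoid element (0.00913%), each searched on both strands. A match is a description of these letters and no measure of binding.

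The receptor varied less from animal to animal than its adaptors did. Insr ran from 5.64 through a median of 6.42 to 6.89, with a mean of 6.42 ± 0.22 (SD, n = 92). Apart from animal 29, which was the lowest, every animal lay within a range from 6.03 to 6.89. Irs1, the adaptor most often tied to GLUT4 translocation in muscle, ran from 4.74 through 5.85 to 7.26 (5.86 ± 0.55). A group of 6 animals lay at 6.95 and above, separated from the remaining 86 by the widest gap in the series of Irs1 values. Irs2, the second adaptor, ran from 2.95 through 4.79 to 6.28 (4.91 ± 0.65). Animal 68 had the least Irs2, 0.72 below the next animal, and from lowest to highest the gene covered a 10.1-fold range.

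Of the 3 kinases, Pdpk1 had the smallest SD. Pdpk1, whose product activates AKT, ran from 4.53 through 5.51 to 5.89 (5.48 ± 0.19). Its lowest animal was again animal 29, 0.64 below the next. Akt2, the AKT isoform of insulin-stimulated glucose uptake, ran from 7.0 through 7.52 to 8.12 (7.51 ± 0.26) with no animal set apart. Gsk3b, which holds glycogen synthase inactive until AKT phosphorylates it, ran from 5.69 through 6.63 to 7.13 (6.63 ± 0.26), and animal 29 lay 0.47 below the next.

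Foxo1 had a lopsided distribution. It ran from 3.99 through a median of 4.70 to 6.70 (4.84 ± 0.49), and its skewness was 1.92. Of the animals, 82 lay between 3.99 and 5.30, and the other 10 were scattered from 5.62 upward. Animal 83 had the highest level and animal 62 the next at 6.4.

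The Rab GTPase-activating proteins, which keep GLUT4 vesicles inside the cell until AKT acts on them, were among the most variable members. Tbc1d4 (also called AS160) ran from 3.29 through 5.14 to 6.39 (5.0 ± 0.67), with a tail toward low values (skewness -0.72). Tbc1d1, the paralogue that is prominent in fast muscle and responds to AMPK as well as AKT, ran from 4.88 through 5.97 to 7.01 (5.92 ± 0.48). Its values were spread evenly on both sides of the mean (skewness 0.11). Slc2a4 stood at the other extreme: it ran from 8.18 through 8.70 to 8.96 (8.69 ± 0.15), and 90 of the 92 animals lay at 8.4 or above. The whole range of the transporter transcript was thus 1.72-fold.

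**Figure D1:**
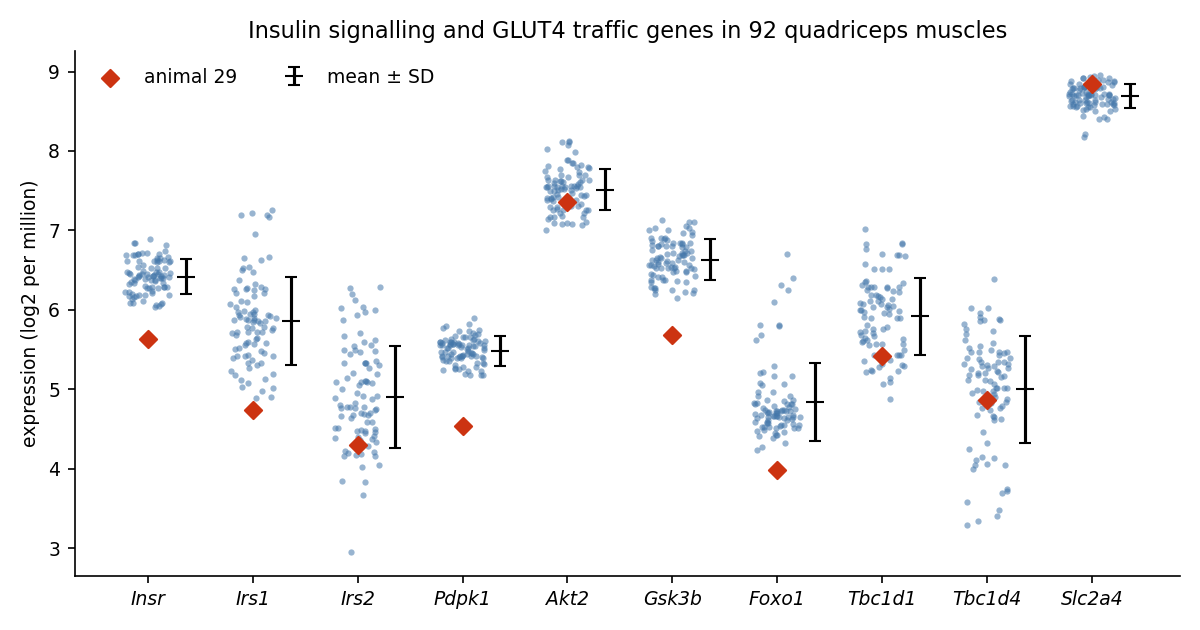
Level of each of the 10 genes (log2, per-million scale, vertical axis) in 92 animals. Each dot is 1 animal, the black bar beside each column is the mean ± SD, and the red diamond is animal 29, which was lowest for Insr, Irs1, Pdpk1, Gsk3b and Foxo1. Slc2a4 covers the narrowest range (8.18 to 8.96), and Irs2 and Tbc1d4 cover the widest.

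Setting the spread of each gene against its level separated 5 variable members from the rest. Between the 5th and the 95th percentile of the animals, Tbc1d4 differed 4.75-fold, Irs1 4.07-fold, Irs2 3.98-fold, Foxo1 2.90-fold and Tbc1d1 2.85-fold. The same span was 1.89-fold for Akt2, 1.74-fold for Gsk3b, 1.57-fold for Insr, 1.44-fold for Pdpk1 and 1.40-fold for Slc2a4. Relative to a smooth curve of SD on mean level over all genes, Tbc1d4 was at the 98.0th percentile of spread, Irs2 at the 97.5th, Irs1 at the 97th, Tbc1d1 at the 95.5th and Foxo1 at the 94.5th (genes, not animals, are ranked here). Akt2 (72.3), Gsk3b (71.4) and Insr (56.3) were nearer the middle but still above the curve. Pdpk1 (31.2) and Slc2a4 (13.4) were the members below it, while 8 of 10 lay above. The median SD was 0.371 for the members and 0.318 for all genes.

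Levels of different genes can be compared only per length, so each mean was divided by the merged exon length in kilobases. Per kilobase the order was Slc2a4, Akt2, Gsk3b, Tbc1d1, Irs1, Insr, Irs2, Tbc1d4, Pdpk1 and Foxo1. Slc2a4 exceeded Akt2 by 2.21 ± 0.25 (log2 per kilobase, SD of the difference, n = 92), and Akt2 exceeded Gsk3b by 1.34 ± 0.29, each in 92 of 92 animals. Below that the steps were smaller than their spread. Gsk3b was above Tbc1d1 in 67 animals, Tbc1d1 above Irs1 in 66, Insr above Irs2 in 68, Irs2 above Tbc1d4 in 53 and Pdpk1 above Foxo1 in 79. Irs1 and Insr (mean difference 0.027 ± 0.54; Irs1 higher in 43 animals) and Tbc1d4 and Pdpk1 (0.026 ± 0.67; Tbc1d4 higher in 54) were not separated. With the longest transcript as the length, 3 of these steps turned: Insr was above Irs1 by 0.53 (80 animals), Tbc1d4 above Irs2 by 0.057 (53 animals) and Pdpk1 above Tbc1d4 by 0.34 (65 animals). Whether the authors had already scaled by length is not stated, and Ttn, the longest muscle transcript, stood at 13.90 before any division.

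A few animals recurred at the ends of these distributions. Animal 29 was the lowest for 5 members, with 5.64 for Insr, 4.74 for Irs1, 4.53 for Pdpk1, 5.69 for Gsk3b and 3.99 for Foxo1. In the same animal Slc2a4 (8.84) was above its mean and Akt2 (7.35) within 1 SD of it. Animal 69 was among the lowest 3 for Pdpk1, Akt2, Foxo1, Tbc1d4 and Slc2a4, and animal 84 was the lowest for Tbc1d1 and Slc2a4. Animal 62 was among the highest 3 for Gsk3b, Foxo1, Tbc1d1 and Tbc1d4.

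Animals 69 and 84 also lay at the ends of the scores of other cells, each the mean of a list's standardised markers. Animal 69 had the lowest endothelial score (-2.88) and the lowest smooth muscle score (-3.41), and animal 84 had the highest macrophage (3.07) and fibroblast (2.74) scores and the lowest fast-fibre score (-2.59). The part of these scores in the levels of the members in those animals was not tested.

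Animal 29 stood apart in another property of its whole library. For each library a length slope was computed, the change in log2 level for each doubling of exon length, over 11028 genes with their means removed. It was -0.20 in animal 29, -0.10 in the next lowest animal and 0.097 in the highest, with a median of 0.0034. Libraries with higher slopes had more signal from long transcripts relative to short ones. Long genes as a set rise with the slope by construction. The members were among the genes that gave it, with merged exons from 3478 bases (Slc2a4) to 13746 (Insr). A total of 6 of the 10 members rose with the slope (limma adjusted p under 0.05). Of all genes, short ones included, 35.6% passed in either direction (18.6% rising and 17.1% falling), which is not a like comparison. Pdpk1 followed the slope most closely (r = 0.774, rho = 0.685, permutation p = 1e-05, the smallest possible), then Gsk3b (r = 0.741), Insr (0.628), Irs1 (0.388), Akt2 (0.350) and Tbc1d4 (0.251). Without animal 29 the value was 0.699 for Pdpk1, 0.688 for Gsk3b and 0.554 for Insr. The slope was almost unrelated to Irs2 (r = 0.0388), Slc2a4 (-0.0496), Foxo1 (0.112) and Tbc1d1 (0.143). RNAs that stay in the nucleus moved with it: of 5 measured, Malat1 (-0.21 ± 0.043, SE, log2 per SD of the slope), Neat1 (-0.091 ± 0.037) and Kcnq1ot1 (-0.069 ± 0.025) fell, as did 2 of 9 mitochondrial mRNAs (17.1% of all genes fell). Malat1 also fell with Pdpk1 (-0.15 ± 0.046) and Gsk3b (-0.15 ± 0.046), as did Rian. The part of these RNAs in the results on the members was not tested. Because Insr, Pdpk1 and Gsk3b followed the slope most closely, values with the slope as a covariate or removed stand beside many of their results.

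**Figure D2:**
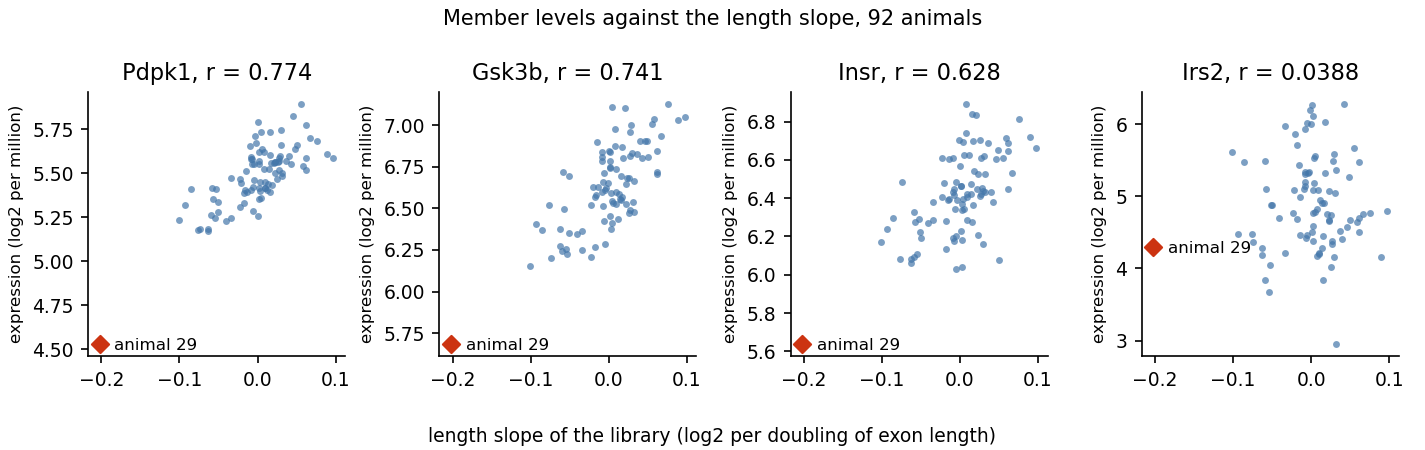
Level (log2, per-million scale, vertical axes) of Pdpk1, Gsk3b, Insr and Irs2 against the length slope of the library (horizontal axes, log2 per doubling of exon length) in 92 animals, 1 dot each. The red diamond is animal 29, at the lowest slope (-0.20). Pdpk1 (r = 0.774), Gsk3b (0.741) and Insr (0.628) rise with the slope, and Irs2 (0.0388) does not.

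Members tended to vary in the same direction. Of the 45 pairs, 40 had a positive Pearson correlation over the 92 animals, beside 49.5% of all gene pairs. The median r was 0.176, beside -0.0015 for all gene pairs. These values are as deposited, without removal of the length slope, with which 6 of the 10 members rose. In 11 pairs each gene was associated with the other (limma slope on the standardised level, Benjamini-Hochberg adjusted p under 0.05 over all genes, in both directions). The share of all genes that passed the same test was 29.2% for Pdpk1, 25.2% for Gsk3b, 19.7% for Insr, 9.17% for Akt2, 7.52% for Irs2, 6.7% for Foxo1, 5.31% for Slc2a4, 5.0% for Irs1 and 0.565% for Tbc1d1. For Tbc1d4 no gene of 13440 passed in limma, and 1534 had an unadjusted p under 0.05. Pairs that include Pdpk1, Gsk3b or Insr must be read against these large shares. Without animal 29 the number of genes went from 2653 to 1672 for Insr and from 672 to 347 for Irs1. Without the 2 animals farthest from the median of the gene it went from 901 to 439 for Foxo1 and from 76 to 29 for Tbc1d1.

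The 3 closest pairs were formed by the receptor and 2 of the kinases. Pdpk1 and Gsk3b had r = 0.733 (rho = 0.688, permutation p = 1e-05, adjusted p = 1.45e-14 by limma). Insr and Gsk3b had r = 0.655 (rho = 0.590, adjusted p = 9.81e-10), and Insr and Pdpk1 had r = 0.647 (rho = 0.572, adjusted p = 3.53e-09). All 3 were positive in each of the 5 title-number runs, from 0.572 to 0.863 for Pdpk1 with Gsk3b. With the length slope removed from both genes they fell to 0.376, 0.363 and 0.326, and among these only Pdpk1 with Gsk3b still passed the test across all genes. Irs1 joined this group through Gsk3b (r = 0.428) and Pdpk1 (0.354), values that were 0.228 and 0.0923 with the slope removed. Akt2 was associated with Gsk3b (r = 0.357) and Insr (0.315), and these were 0.156 and 0.130 with the slope removed, when neither passed.

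A second set of pairs was not weakened when the length slope was removed. Irs2 and Foxo1 had r = 0.461 (rho = 0.424, adjusted p = 0.000251), and the value was 0.460 with the slope removed and 0.452 without animal 29. It was positive in all 5 runs, from 0.172 to 0.610. The pair missed the test with 6 clock, fasting and fibre genes (the axis genes Dbp, Bmal1, Pdk4, Fbxo32, Myh7 and Myh2) or the first 3 principal components of the whole table as covariates, and with the components the slope of Foxo1 went from 0.23 to 0.017 log2 per SD of Irs2. Akt2 and Slc2a4, the kinase and the transporter at the end of its pathway, had r = 0.373 (rho = 0.320, adjusted p = 0.00869), or 0.417 with the slope removed. Within runs that pair was positive in 3 (up to 0.570) and negative in the 2 smallest runs (-0.146 and -0.127), and the pair missed the test in at least 1 of its directions without the 2 animals farthest from the median and with the other-cell scores, the 3 components or the 6 axis genes as covariates. The slope of Slc2a4 was 0.056 log2 per SD of Akt2, 0.054 without the 2 farthest animals and 0.041 with the components. Irs2 and Pdpk1 had r = 0.302, and 0.430 with the slope removed. Their pair missed the test in at least 1 direction with the run, the other-cell scores, the 3 components or the 6 axis genes as covariates. Without animal 29, 8 of the 11 pairs were associated, and the 3 lost were Irs2 with Pdpk1, Irs1 with Pdpk1 and Pdpk1 with Foxo1. Pdpk1 and Foxo1 had r = 0.308 with a rho of 0.198 (permutation p = 0.0583). Without the 2 animals farthest from the median of Pdpk1 the r was 0.162, so the strength of that relation depended in part on those animals. Its r was 0.351 with the length slope removed, and with the slope as a covariate the pair still passed, at 0.27 log2 of Foxo1 per SD of Pdpk1 in place of 0.15.

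Neither pair of paralogues passed the test. Irs1 and Irs2 had r = 0.259 (adjusted p = 0.112 by limma), and Tbc1d1 and Tbc1d4 had r = 0.0211 (adjusted p = 0.942). Irs2 and Tbc1d1 (r = 0.338) passed in 1 direction only (adjusted p = 0.017 and 0.0762). Tbc1d4 formed no pair with any member, its nearest value being 0.21 with Gsk3b. Irs1 and Foxo1, at r = -0.14, were among the 5 pairs with a negative sign. That pair passed in both directions only with the 3 principal components as covariates.

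**Figure D3:**
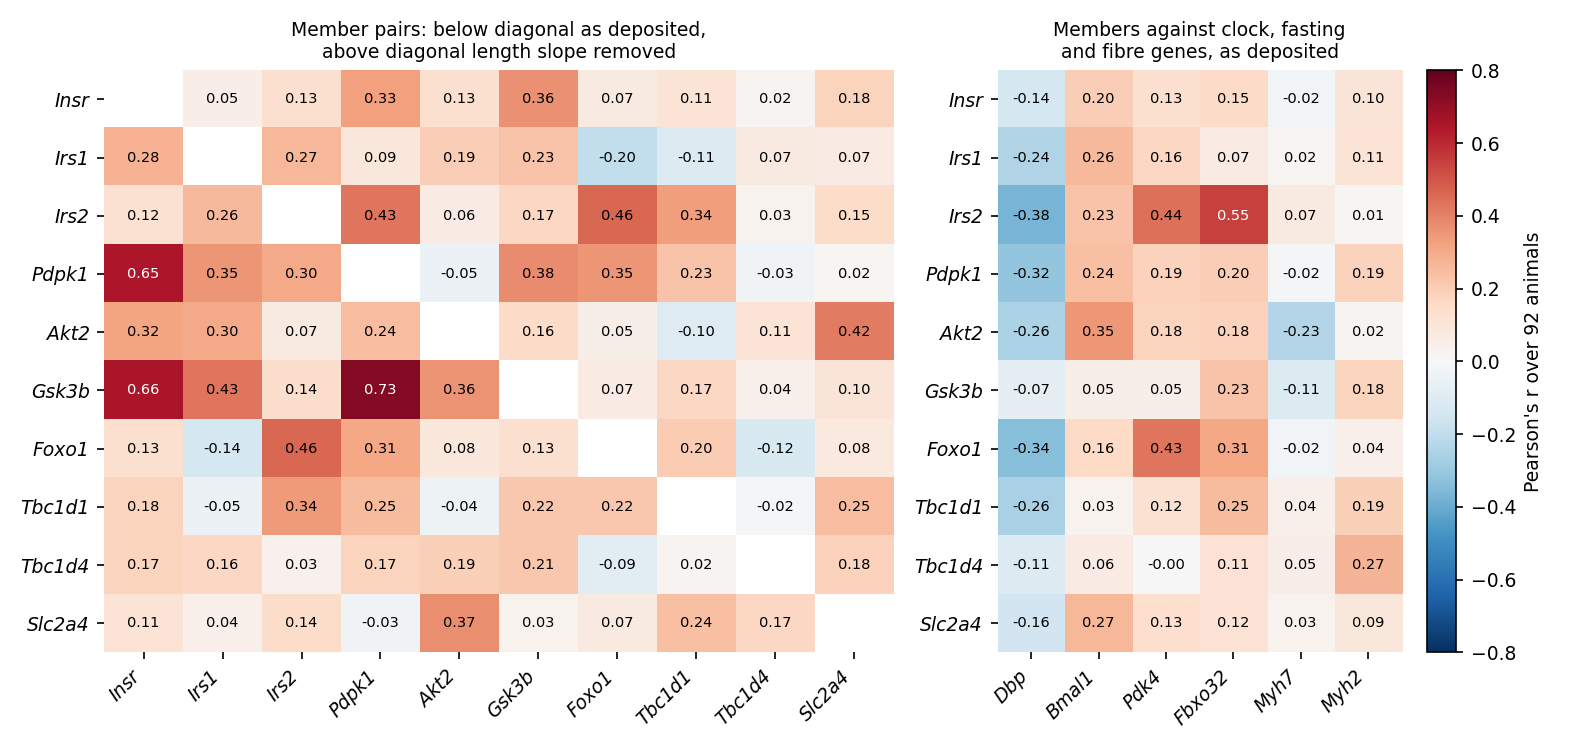
Pearson's r over 92 animals. Left: the 45 pairs of members, as deposited below the diagonal and with the length slope removed above it. Right: each member against the clock genes Dbp and Bmal1, the fasting genes Pdk4 and Fbxo32 and the fibre genes Myh7 and Myh2. The block of Insr, Pdpk1 and Gsk3b is dark below the diagonal and pale above it, while Irs2 with Foxo1 is 0.46 on both sides.

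Across the wider pathway, a list of 70 measured genes, the members with most associated genes overall also had most here. With Pdpk1, 29 of the 70 rose and 6 fell (all genes: 16.1% rising, 13% falling), with a median slope of 0.044 log2 per SD beside -0.0059 over all genes. With Gsk3b, 25 rose and 4 fell (14.9% and 10.3%), and with Insr 21 rose and 2 fell (12.1% and 7.6%). Among those that rose with Pdpk1 were Ppp1r3a, the glycogen-targeting subunit of protein phosphatase 1 in muscle (0.20 ± 0.021, SE, log2 per SD, limma adjusted p = 8.46e-14), and Rhoq, the GTPase TC10 (0.17 ± 0.018, adjusted p = 1.65e-13).

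Ppp1r3a and Rhoq also rose with Gsk3b (0.18 ± 0.022 and 0.16 ± 0.019). The genes that fell with Pdpk1 included Tsc2, a brake on mTORC1 (-0.075 ± 0.021), and Aspscr1, the GLUT4-tethering protein TUG (-0.092 ± 0.029). Both also fell with Insr and Gsk3b. With the length slope as a covariate, 10 of the 70 rose and 2 fell with Pdpk1, 5 rose and 0 fell with Gsk3b, and 0 passed in limma for Insr (15 at an unadjusted p under 0.05). Over all genes the numbers went from 3921 to 1098 for Pdpk1, from 3390 to 367 for Gsk3b, from 2653 to 11 for Insr, from 672 to 112 for Irs1 and from 1233 to 648 for Akt2, while those for Irs2 (1011 to 1188), Foxo1 (901 to 959) and Slc2a4 (714 to 1012) rose.

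**Figure D4:**
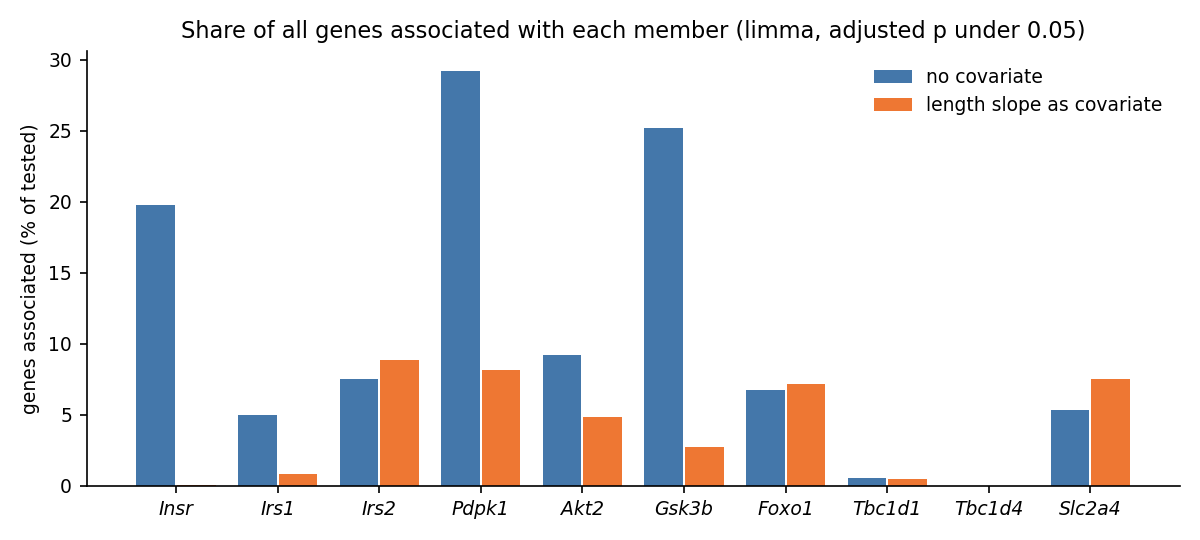
Share of all tested genes (vertical axis, percent) associated with each member at a limma adjusted p under 0.05, without a covariate (blue) and with the length slope of the library as a covariate (orange). Pdpk1 falls from 3921 genes to 1098, Gsk3b from 3390 to 367 and Insr from 2653 to 11, while Irs2 goes from 1011 to 1188.

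Irs2 and Foxo1 rose with fasting genes. Pdk4, which shuts glucose carbon out of the mitochondrion, ran from 7.05 through 9.86 to 11.76, and 2 of the 10 members were associated with it (6.01% of all genes were). They were Irs2 (r = 0.439, rho = 0.407, permutation p = 3e-05, adjusted p = 0.000758 by limma) and Foxo1 (r = 0.429, rho = 0.434, permutation p = 5e-05, adjusted p = 0.00116). The same 2 members were associated with Fbxo32 (7.43% of all genes), the muscle ubiquitin ligase atrogin-1. Irs2 followed it at r = 0.546 (rho = 0.534, adjusted p = 5.65e-06), the strongest of the 60 relations between members and the 6 axis genes, and Foxo1 at r = 0.309 (rho = 0.240, adjusted p = 0.0374). All 4 relations were positive in every title-number run, although Foxo1 with Fbxo32 missed the test with the run as a covariate. The smallest was 0.142 for Foxo1 with Fbxo32 in a single run, and the largest 0.771 for Irs2 with Pdk4. With the first 3 principal components of the whole table as covariates, none of the 4 passed in limma.

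Part of the wider fasting list rose with these 2 members, and none of it fell. Of 24 measured, Pdk4 and Fbxo32 included, 11 rose and 0 fell with Irs2, where 3.44% of all genes rose and 4.08% fell, and the median slope was 0.22 log2 per SD beside a value near 0 over all genes. With Foxo1, 15 rose and 0 fell (3.15% and 3.55% of all genes), with a median slope of 0.24 beside -0.0024. The largest slopes on Irs2 were those of Pdk4 (0.43 ± 0.090, SE), Ddit4, an inhibitor of mTORC1 (0.42 ± 0.11), Cebpd (0.37 ± 0.077) and Ppargc1a, the coactivator PGC-1α (0.33 ± 0.057). On Foxo1 the metallothioneins Mt2 (1.03 ± 0.16) and Mt1 (0.71 ± 0.11) led, followed by Ddit4 (0.59 ± 0.10) and Cebpd (0.43 ± 0.074). Trim63, the ubiquitin ligase MuRF1, rose with Irs2 (0.26 ± 0.051) and with Foxo1 (0.35 ± 0.045, adjusted p = 7.86e-09). With the other-cell marker scores as covariates, 8 rose with Irs2 and 12 with Foxo1. With the 3 components as covariates, 0 of 24 passed for Irs2 in limma (7 at an unadjusted p under 0.05) and 2 for Foxo1. The third component itself followed Foxo1 (r = 0.706), Irs2 (0.594) and Pdpk1 (0.576). A list of 9 feeding genes, Srebf1 and Fasn among them, did not move the opposite way. Of the 9, 0 passed in limma with Irs2 and 0 with Foxo1, where 7.52% and 6.7% of all genes passed. The median slopes of that list were 0.054 and 0.043 log2 per SD.

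**Figure D5:**
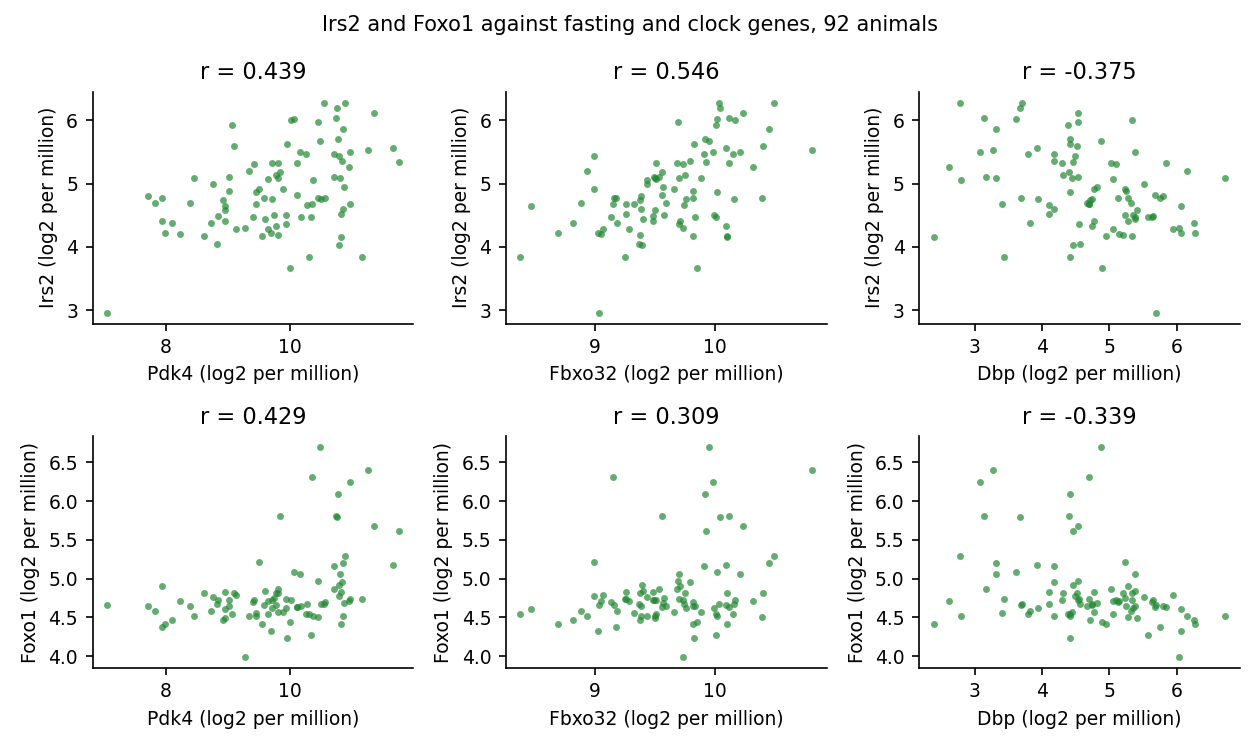
Irs2 (top row) and Foxo1 (bottom row) against Pdk4, Fbxo32 and Dbp in 92 animals, all in log2 on the per-million scale, 1 dot per animal. Irs2 rises with Fbxo32 (r = 0.546). The high Foxo1 values, 5.62 to 6.70 in 10 animals, sit above the other 82.

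Some genes of the insulin pathway rose or fell with both Irs2 and Foxo1. Foxo3, another FoxO gene, rose with Irs2 (0.093 ± 0.024) and with Foxo1 (0.16 ± 0.021, adjusted p = 1.15e-08), whereas Foxo6 fell with both (-0.22 ± 0.058 and -0.24 ± 0.057). Ppp1r3c, a glycogen-targeting subunit of protein phosphatase 1, rose with Irs2 (0.22 ± 0.051) and with Foxo1 (0.35 ± 0.043). In all, 6 of the 70 pathway genes rose and 3 fell with Irs2 (3.44% and 4.08% of all genes), so the share that fell was near that of all genes. With Foxo1, 9 rose and 1 fell (3.15% and 3.55% of all genes), or 4 and 0 without the 2 animals farthest from its median and 6 and 1 without animal 29. Trib1 and Rictor (0.23 ± 0.046 and 0.16 ± 0.033) were among those that rose with Irs2, and Socs3 (0.42 ± 0.12) had the largest slope on Foxo1.

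Markers of other cells moved with Foxo1 as well. Of 6 endothelial markers, 4 fell as Foxo1 rose (3.55% of all genes fell), and 2 did without the 2 animals farthest from its median. The 4 were Kdr (-0.19 ± 0.039), Cldn5 (-0.16 ± 0.045), Cdh5 (-0.090 ± 0.027) and Tie1 (-0.086 ± 0.025). Pecam1 had a slope of -0.0027 ± 0.020 and Tek of -0.083 ± 0.029, and neither passed. The endothelial score, the mean of the standardised markers, had r = -0.402 with Foxo1 (rho = -0.257). With Irs2, 1 of 6 endothelial markers (Kdr), 1 of 6 macrophage markers (Csf1r) and 2 of 6 fibroblast markers (Col1a1 and Col1a2) fell, beside 4.08% of all genes. No adipocyte, Schwann, smooth muscle, blood or satellite cell marker passed with Irs2 in limma. The part of these markers in the results on Irs2 and Foxo1 was not tested beyond the fit with all 8 other-cell scores, in which Irs2 still rose with Fbxo32 and Foxo1 no longer passed on Fbxo32.

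Of the 2 clock genes fitted, Dbp was associated with the same 2 members and Bmal1 with Akt2. Dbp, an output gene of the clock whose level swings through the day, ran from 2.39 through 4.70 to 6.72. It was associated with 2 of the 10 members (3.1% of all genes), both falling as it rose: Irs2 (r = -0.375, rho = -0.393, adjusted p = 0.0123) and Foxo1 (r = -0.339, rho = -0.356, adjusted p = 0.0326). For Foxo1 the sign was negative in all 5 runs, and for Irs2 in 4. Irs2 missed the test with the run as a covariate and Foxo1 without animal 29, and both did with the other-cell scores or the 3 components. Bmal1, a core clock gene whose transcript peaks at another time of day than Dbp, was associated with 1 of 10 members (6.94% of all genes), Akt2 (r = 0.350, rho = 0.354, adjusted p = 0.0159). That association missed the test without the 2 animals farthest from the median (r = 0.286) and with the 3 components as covariates, where the slope of Akt2 went from 0.091 to 0.035 log2 per SD of Bmal1 and Gsk3b was the member that passed.

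Other clock genes differed in direction. Of 19, Nfil3 (0.44 ± 0.067), Per2 (0.35 ± 0.092) and Per1 (0.34 ± 0.092) rose with Irs2, beside 3.44% of all genes. Dbp, Bhlhe40 (-0.18 ± 0.037) and Bhlhe41 (-0.16 ± 0.040) fell with it, beside 4.08%. Per1 (0.52 ± 0.082) and Nfil3 (0.42 ± 0.069) rose with Foxo1, and Dbp, Bhlhe40 and Nr1d1 (-0.14 ± 0.038) fell (3.15% and 3.55% of all genes). Clock rose with Irs1 (0.096 ± 0.025) and Ciart fell (-0.30 ± 0.075), 1 gene each of the 19, beside 4.04% and 0.96% of all genes. Clock and Bmal1 rose with Akt2 while Per3 fell (-0.21 ± 0.050), beside 6.09% and 3.09% of all genes. With Pdpk1 as the predictor, Clock (0.18 ± 0.019), Nr1d2 and Rora rose, and Dbp, Bhlhe40 and Nr1d1 fell. At 3 of 19 in each direction, the clock list lay near the shares of all genes (16.1% rising, 13% falling). With Gsk3b 4 of the 19 rose and with Insr 3, and 0 fell with either. Of all genes, 14.9% rose and 10.3% fell with Gsk3b, and 12.1% rose and 7.6% fell with Insr. The rising counts of the clock list were thus near those of all genes. With the length slope as a covariate, 2 rose and 3 fell with Pdpk1, 2 rose with Gsk3b, and 0 passed in limma for Insr (2 at an unadjusted p under 0.05). Per1 is also known as a gene that glucocorticoids raise, as are Mt2, Ddit4, Cebpd and Fkbp5 (0.38 ± 0.061 on Foxo1).

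The fibre-type myosins Myh7 and Myh2 were associated with no member, but other genes of the fibre-type lists were. Myh7, the slow myosin, spanned 0.51 to 8.41 across the animals, and Myh2, the oxidative fast myosin, 10.12 to 12.37. With neither was any of the 10 members associated in limma (1 member each at an unadjusted p under 0.05), beside 0.171% and 5.26% of all genes. The nearest values were -0.234 for Akt2 with Myh7 (permutation p = 0.0242, adjusted p = 0.829) and 0.274 for Tbc1d4 with Myh2 (permutation p = 0.00858, adjusted p = 0.0863). With Akt2 as the predictor, 5 of 10 slow-fibre genes fell and none rose (3.09% of all genes fell and 6.09% rose). They were the slow troponins Tnni1 (-0.54 ± 0.17), Tnnc1 (-0.52 ± 0.17) and Tnnt1 (-0.47 ± 0.15), with Casq2 (-0.24 ± 0.079) and Myl6b (-0.15 ± 0.041), and their adjusted p-values by limma lay between 0.00909 and 0.0393. The median slope of the list was -0.39, beside -0.00089 over all genes. With the length slope as a covariate the median was -0.42 and 0 passed in limma, with all 10 at an unadjusted p under 0.05. The fast genes Gpd1 (0.084 ± 0.024) and Myh4 (0.082 ± 0.025) rose with Akt2. Of 6 fibroblast markers, Col1a1 (-0.17 ± 0.057) and Lum (-0.14 ± 0.043) fell with Akt2, as did 2 of 5 nuclear RNAs, Rian (-0.19 ± 0.056) and Meg3 (-0.16 ± 0.048). With the other-cell scores as covariates 1 slow-fibre gene fell, with a median slope of -0.35 for the list.

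Some fast-fibre genes fell with Pdpk1 and Insr, while with Gsk3b as many rose as fell. These 3 members followed the length slope. With Pdpk1, 7 of 14 fell and 1 rose (all genes: 13% falling, 16.1% rising). Among those that fell were Casq1, the calcium store protein of the fast fibre (-0.11 ± 0.024), the calcium pump Atp2a1 (-0.088 ± 0.018) and parvalbumin, Pvalb (-0.085 ± 0.024), while Myh4, the fastest myosin, rose (0.090 ± 0.025). Without animal 29, 3 fell and 1 rose, and with the length slope as a covariate 0 passed in limma (1 at an unadjusted p under 0.05). With Insr 3 of the 14 fell and 0 rose (7.6% and 12.1% of all genes). With Gsk3b 2 fell and 2 rose (10.3% and 14.9% of all genes), counts near those shares. Of 7 genes of the oxidative fast (IIa) fibre, Fabp3, Cox7a1 and Ckmt2 fell with Gsk3b. With the length slope as a covariate, 0 of the 14 passed in limma for Insr (0 at an unadjusted p under 0.05), 1 rose with Gsk3b, and 0 of the 7 passed for Gsk3b (1 unadjusted). On the length slope itself, 10 of the 14 fast-fibre genes fell and 1 rose (17.1% and 18.6% of all genes).

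Fitted together, the 6 axis genes accounted for a larger share of the variance of Irs2 than of any other member. The share was 35.7% for Irs2 (98.5th percentile of all genes, adjusted p = 3.23e-05 by limma), 21.3% for Foxo1, 20.8% for Akt2 and 20.1% for Tbc1d1. These 4 of 10 members passed the test, as did 23.9% of all genes. Akt2 missed it with the length slope (adjusted p = 0.0594) or the other-cell scores (0.0602) as covariates, and Foxo1 missed it with the other-cell scores. With the 3 principal components as covariates 0 of the 10 members passed in limma (adjusted p = 0.265 for Irs2 and 0.0863 for Tbc1d1). The remaining shares were 15.8% for Pdpk1, 15.6% for Gsk3b, 14.3% for Tbc1d4, 9.04% for Irs1 and for Slc2a4, and 7.22% for Insr, around the 11.1% that was the median of all genes. Tbc1d1 thus passed the joint test although none of the 6 genes alone was associated with it.

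Slc2a4, although nearly constant, was associated with 7 of the 70 pathway genes, 4 rising and 3 falling, and 1 of the 6 glucose use genes was among them. That gene, Gys1, muscle glycogen synthase, rose with it (0.11 ± 0.019, SE, log2 per SD, adjusted p = 6.33e-05 by limma, where 3.36% of all genes rose and 1.96% fell), as did 2 of 14 fast-fibre genes, Pfkm (0.084 ± 0.014) and Gpd1 (0.093 ± 0.024), and 2 of 7 IIa-fibre genes, Ckmt2 (0.14 ± 0.029) and Mb, myoglobin (0.14 ± 0.045). Among GLUT4 traffic genes, none of 24 rose and 2 fell, the vesicle protein Vamp2 (-0.062 ± 0.018) and the vesicle receptor Lrp1 (-0.10 ± 0.029). Hk2, which phosphorylates the imported glucose, had a slope of 0.077 ± 0.034 and did not pass. Without animals 84 and 69, the 2 farthest from the median of Slc2a4, 58 genes of all tested were associated with it in place of 714, and of the 70 pathway genes 1 rose and 0 fell.

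With Irs1, 7 of the 70 pathway genes rose and 0 fell (4.04% and 0.96% of all genes), led by the AKT-binding pseudokinases Trib2 (0.21 ± 0.033, adjusted p = 4.01e-05) and Trib1 (0.19 ± 0.048), with Stxbp4 (0.13 ± 0.037), Pik3ca (0.097 ± 0.027), Ralgapb (0.094 ± 0.020), Rhoq (0.085 ± 0.023) and Snap23 (0.075 ± 0.022). The last 4 also rose with Insr, Pdpk1 and Gsk3b, and Trib1 also rose with Irs2. With the length slope as a covariate 2 of the 70 rose with Irs1, and without animal 29 the number was 4. Cited2 (0.29 ± 0.049) was the one fasting gene of 24 that rose. Tbc1d1 was associated with 2 of the 70, Gys1 (0.096 ± 0.019) and Phlpp1, a phosphatase that acts on AKT (0.11 ± 0.026). Tbc1d4 had none in limma, with 10 at an unadjusted p under 0.05, although it was the most variable member.

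Differences between paralogues were taken within each animal. Irs1 exceeded Irs2 by a mean of 0.42 per kilobase (log2, n = 92) and was the higher in 67 animals. Without division by length the difference was 0.95 ± 0.73 (SD). It ran from -0.85 to 2.81, so the balance of the 2 adaptors shifted over a wide range. The difference fell as Fbxo32 rose (r = -0.431, rho = -0.389, adjusted p = 0.00178 by limma), a call lost with the 3 principal components as covariates. In either direction, 2.93% of all genes passed the same test. Of 24 fasting genes 10 fell with the difference and 0 rose (1.35% and 1.58% of all genes). Trim63 (-0.32 ± 0.047), Mt2 (-0.74 ± 0.18), Ddit4 (-0.53 ± 0.10) and Cebpd (-0.40 ± 0.075) were among them. Irs2 enters the difference with a minus sign, so these falls are not independent of the result on Irs2 alone. With Irs2, 11 of the 24 rose, Fbxo32, Trim63, Ddit4 and Cebpd among them, but not Mt2. With Irs1, only Cited2 passed. Tbc1d1 exceeded Tbc1d4 by a mean of 0.97 per kilobase (0.92 ± 0.82 without division by length) and was the higher in 85 animals. No gene of 13439 was associated with that difference in limma, and 815 had an unadjusted p under 0.05.

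The genes whose levels were most like each member, by Pearson's r over the 92 animals, differed from member to member. For Pdpk1 they were Ranbp2 (0.864) and Hipk3 (0.861), for Gsk3b Hipk3 (0.829) and Nr2c2 (0.797), and for Insr Cul5 (0.703) and Hipk3 (0.690). Hipk3 was thus shared by the 3 members closest to the length slope, and with the slope removed its r was 0.604 with Pdpk1, 0.559 with Gsk3b and 0.376 with Insr. Removal of the slope left 0.652 for Pdpk1 with Ranbp2, 0.459 for Gsk3b with Nr2c2 and 0.466 for Insr with Cul5. Irs2 was nearest to Flcn, folliculin (0.684), and Nr4a3, an orphan nuclear receptor of exercise and adrenergic signalling (0.663). Foxo1 was nearest to the amino acid transporter Slc7a8, with r = 0.764 and a rho of 0.437, and to Lrrc58 (0.730). Akt2 was nearest to Bcl2l13 (0.659) and Mapk14, the kinase p38α (0.654). Slc2a4 was nearest to Fem1a (0.627) and the glycolytic enzyme Tpi1 (0.590). Values were lower for Tbc1d1, with Mylk4 (0.506) and Zfp9 (0.489), and lowest for Tbc1d4, with Fam53b (0.389) and Plekha1 (0.384). The most negative were -0.672 for Irs2 with Gm11266, -0.664 for Foxo1 with Plxdc1, -0.646 for Pdpk1 with Vps28 (-0.135 with the slope removed), -0.556 for Insr with Trir (-0.155 with it removed), -0.540 for Irs1 with Dusp7, -0.520 for Akt2 with Cd276, -0.491 for Slc2a4 with Stard9, -0.457 for Tbc1d1 with Ptma and -0.415 for Tbc1d4 with S100a6.

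Irs1 was nearest to Mrtfb (0.611) and to ENSMUSG00000022591 (0.60), which has no symbol in the table. These were 0.522 and 0.84 with the length slope removed. The annotation places ENSMUSG00000022591 on chr1:82233112-82235933, on the strand opposite to Irs1 and overlapping 2822 bases of its exons. Because the handling of strand is not stated, reads of the pair cannot be told apart, and the values of Irs1 carry that limit. Annotated genes on the opposite strand also overlap exons of Foxo1 (674 bases), Dbp (539), Fbxo32 (186) and Irs2 (162), and of Bmal1, Myh7 and Myh2, whose values carry it too. Among other genes within 1000 kb, Slc2a4 was most like Eno3, the muscle enolase (0.589), and Akt2 most like Hipk4 (0.54). For Tbc1d4 the nearest of 3 neighbours was Lmo7, at 0.36 with an adjusted p of 0.235. No member differed between the 5 title-number runs in limma, with 3 at an unadjusted p under 0.05, and 0.0149% of all genes did. The smallest unadjusted p was that of Foxo1 (0.00354, adjusted p = 0.372).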

How the data were processed

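Polyadenylated RNA from 92 quadriceps muscles was sequenced, from libraries made with a KAPA mRNA kit and 500 ng of RNA, per the labels' protocols. The submitters' processing notes name bcl2fastq, MultiQC, kallisto 0.50.1, edgeR and mm10, with no role or order. The authors deposited 1 table of log2 values, with scaling and filter not given in the sources used here. Raised to linear values, samples summed to between 898071 and 1140761, so the scale is close to a per-million one. Depth is unknown, and no whole reads were recovered, so precision rests on the spread between animals. Of 13456 lines, 15 repeated others and were removed. No other sample's columns were present (0). No pair of libraries was a duplicate (smallest root mean square difference 0.521, median 0.66 of 4186 pairs).

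The tests were limma fits: limma 3.58.1 in R 4.3.3 (lmFit, eBayes with a mean trend) fitted every gene on the standardised level of 1 gene, with Benjamini-Hochberg adjustment over all genes. The test was checked on simulated data. Pearson and Spearman correlations carry two-sided permutation tests with 100000 resamples, in families of 45 member pairs, 60 member and axis relations, 12 for paralogue differences and 190 for sample measures. Adjusted values are those of limma over all genes. Exon lengths came from GENCODE M21 and promoters from RefSeq. Named genes were the 10 members, 6 axis genes, the 2 most positive and 1 most negative correlates of each member (mean of at least 1), and up to 4 called genes per list and member, and a few more were chosen after their values were seen. Some genes named by this rule are not reported here. The members and lists were chosen with earlier results of these data known. P-values measure the spread between animals. Alternatives were title-number runs, library order, 3 principal components, other-cell scores, axis genes or length slope as covariates, 2 farthest animals left out, log2(value + 1), a filter at a mean of 1, median centring, and, chosen after seeing the data, animal 29 left out.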

Additional observations from a re-analysis of the deposited data

How the results depend on the processing

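Of 45 pairs of members, 11 were associated, and the number was 7 with the title-number run as a covariate, 4 with 3 principal components, 6 with other-cell scores, 5 with the length slope and 4 with the 6 axis genes. With the components, 1 of the 4 was Irs1 with Foxo1, a pair outside the 11. On Dbp, 2 members were associated, but 1 with the run, 0 with the components (1 at an unadjusted p under 0.05), 0 with other-cell scores (6) and 1 without animal 29. On Bmal1, 1 (Akt2) became 0 without the 2 farthest animals (2 at an unadjusted p under 0.05), and with the components the 1 member was Gsk3b in place of Akt2. On Pdk4, 2 became 0 with the components (also 0 unadjusted). On Fbxo32, 2 became 1 (Irs2) with the run, 0 with the components (1 unadjusted) and 1 (Irs2) with other-cell scores. In the joint model, 4 members became 0 with the components, 2 with other-cell scores (without Akt2 and Foxo1) and 3 with the length slope (without Akt2). The association of Irs1 minus Irs2 with Fbxo32 was lost with the components (0 of 6 axis genes). Under the components the sign turned in 6 of 18 relations, with slopes of -0.018 for Pdpk1 on Irs2, -0.090 for Foxo1 on Pdpk1, 0.0022 for Irs2 on Dbp, 0.067 for Foxo1 on Dbp, -0.036 for Foxo1 on Pdk4 and -0.040 for Foxo1 on Fbxo32. The components were made from all genes, members included, and the cause of these changes was not tested. Each of the 18 relations, taken in the direction fitted here, kept its sign and call under library order, log2(value + 1), the filter on low means and median centring; in the opposite direction Pdpk1 with Foxo1 missed the test under library order, which left 10 pairs associated both ways. Without animal 29 the number was 8. With the longest transcript, the steps per kilobase were 1.69 for Slc2a4 over Akt2, 1.75 for Akt2 over Gsk3b, -0.53 for Irs1 over Insr and 0.92 for Pdpk1 over Foxo1. No paired analysis was possible because the animals form 1 group. Read depth is unknown, so how far counting error adds to the spread of low members such as Foxo1 and Irs2 was not determined.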
